A study of Mus musculus with 8 samples.

Results

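The formyl peptide and anaphylatoxin receptors are 6 genes of the deposited count table, taken by name: Fpr1, Fpr2, Fpr3, C5ar1, C5ar2 and C3ar1, out of 54532 genes in all. RNA was sequenced from neutrophils sorted by flow cytometry out of mammary tumours, grown to 1 cm across after 2208L cells (a line from a mouse mammary tumour) were placed in the fat pad of Balb/c mice. An ICAM1high and an ICAM1low fraction were collected, with 4 biological replicates of each and no treatment in either; ICAM1, also called CD54, is an adhesion protein and a ligand of beta2 integrins. All groups share the strain, the tumour line and the untreated state. The age and sex of the mice, the sorting gates and whether each replicate came from its own mouse were not given in the sources used here. The p-values thus measure the spread between these samples, which are labelled biological replicates but may not be separate mice. The deposited table numbers the libraries of replicates 1 and 2 in one series and those of replicates 3 and 4 in another.

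Each of these receptors is a seven-helix membrane protein of phagocytes, and most of them steer cells towards injury or infection. Formyl peptide receptors sense peptides that begin with N-formyl methionine, which bacteria and damaged mitochondria release, and Fpr2 also binds host ligands such as annexin A1. Complement activation releases the anaphylatoxins C3a and C5a, small fragments that act on C3ar1 and on C5ar1 and C5ar2. Fpr1, Fpr2, C5ar1 and C3ar1 signal through inhibitory G proteins to calcium, PI3 kinase gamma and Rac, whereas C5ar2 binds C5a without coupling to G proteins.

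All 6 genes passed the filter on low counts. C3ar1 was 21.9-fold higher in ICAM1high, and Fpr1, C5ar1 and Fpr2 were 4.32-fold, 3.19-fold and 2.86-fold lower. C5ar2 and Fpr3 did not pass the edgeR test. Thus 1 of 6 receptors was called higher, where 22.6% of all 14051 genes tested were, and 3 of 6 were called lower, where 19.6% of all genes were; 42.1% were called in either direction. The CPM ranges of the fractions (CPM, counts relative to library size as scaled by TMM, a trimmed mean of ratios between libraries) were apart for the same 4 receptors, C3ar1 with ICAM1high above (23.4% of all genes) and the other 3 with ICAM1high below (18.0% of all genes; 41.5% in either direction). The median log2 fold change of the 6 was -1.18, beside 0.080 over all genes tested.

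**Figure D1:**
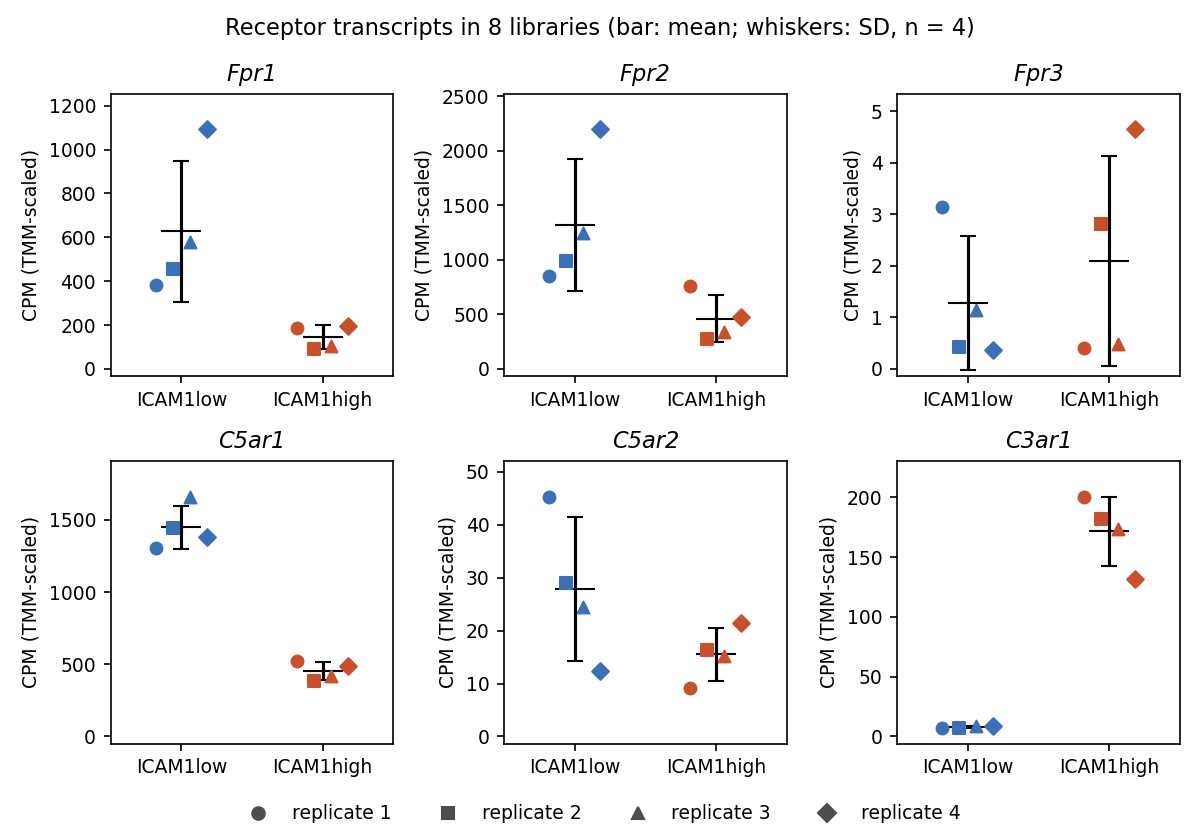
CPM of each receptor in the 8 libraries, by fraction. Points are libraries with a marker for each replicate number, bars are means and whiskers the SD (n = 4). C3ar1 lies between 132 and 200.3 CPM in ICAM1high and at 9.11 CPM or less in ICAM1low, while C5ar1 lies at 521 CPM or less in ICAM1high and at 1307 CPM or more in ICAM1low.

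Libraries held 10328575 to 22751975 counts. ICAM1high replicate 1 and ICAM1low replicate 4 stood apart from their fractions on the second principal component (22% of the variance, against 58.4% for the first). ICAM1low replicate 1 lay at the opposite end of that component. Genes shorter than 1500 bases, which include the 3 Fpr genes, took 12.4% of counts in ICAM1high replicate 1 against 7.32 to 7.68% in the other ICAM1high libraries. In ICAM1low they took 16.7% in replicate 4 and 7.29 to 9.91% in the rest. Icam1, the transcript of the sorted protein, ranged from 1299.7 to 1733 CPM in ICAM1high and from 607 to 1085 CPM in ICAM1low. Neutrophil transcripts were present in every library, but 20 of 20 neutrophil markers were called lower in ICAM1high (median log2 fold change -2.16), with summed levels of 15112 to 20373 CPM against 61753 to 111571 CPM. Of 22 macrophage and monocyte markers 19 were called higher and 0 lower (median 3.94), beside 22.6% and 19.6% of all genes tested. Their summed levels were 11324 to 18333 CPM in ICAM1high and 1282 to 1949 CPM in ICAM1low. The 3 not called were Ly6c2 at -1.11 (edgeR adjusted p = 0.0646), Ctsk at -0.13 and Cd68 at 0.46. Under 6 of 21 alternative analyses 1 member was called lower. Most macrophage and monocyte markers thus moved with the fraction, against the neutrophil ones. In bulk RNA, fewer cells of a type and less RNA per cell cannot be told apart. Scaling by library totals alone moved the median log2 fold change of all genes from 0.080 to 0.76, and fold changes below are on the TMM scale unless stated.

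C3ar1, the receptor for C3a (ENSMUSG00000040552, mm10 chromosome 6, 122847138 to 122856161, minus strand), carried the rise. In ICAM1high replicates 1 to 4 it measured 200.3, 182, 173 and 132 CPM, and in ICAM1low 6.97, 6.79, 8.40 and 9.11 CPM. Every ICAM1high library lay far above every ICAM1low library, and the spread within a fraction was small. Means were 172 ± 28.9 against 7.82 ± 1.12 CPM (SD, n = 4), and the log2 fold change was 4.46 (SE 0.20, edgeR adjusted p = 1.04e-06). By p-value it ranked 2 and by size of increase 94 among the 14051 genes. Its log2 fold change was 4.42 without ICAM1high replicate 1 and ICAM1low replicate 4, and 5.15 under library totals. In replicates 1 and 2 alone it was 4.79, and in replicates 3 and 4 alone 4.07, and the edgeR test passed in each (adjusted p = 6.11e-05 and 0.00472). Macrophage markers rose in the same libraries by a median of 3.94, and how much of the C3ar1 difference goes with them was not tested. Among markers of mast cells and basophils, which also carry C3ar1, Fcer1a had 0 counts in all libraries and Cpa3 had 12 counts over the ICAM1high libraries and 33 over the ICAM1low libraries. Mcpt4, Tpsb2, Cma1, Ms4a2 and Mcpt8 had 17, 13, 12, 4 and 2 counts over the ICAM1high libraries and 0 over the ICAM1low libraries, the direction of C3ar1, and their part in its difference was not tested. Of the list's 9 members 2 were tested. Hpgds, the haematopoietic prostaglandin D synthase, was called higher at 3.73 and Kit, the stem cell factor receptor, lower at -0.99, beside 22.6% higher and 19.6% lower over all genes. The call of Kit was lost under library totals, in replicates 3 and 4 alone, and on leaving out any 1 library other than ICAM1high replicate 4.

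C5ar1, the main receptor for C5a (ENSMUSG00000049130, chromosome 7, 16246743 to 16259540, minus strand), was lower in ICAM1high with little spread. The ICAM1high replicates 1 to 4 held 521, 385, 421 and 491 CPM. ICAM1low replicates held 1307, 1445, 1659 and 1380.4 CPM. The fractions did not overlap, and ICAM1low replicate 4 lay within the range of the other ICAM1low libraries. Means were 454 ± 62.6 against 1448 ± 152 CPM (SD, n = 4), and the log2 fold change was -1.67 (SE 0.16, edgeR adjusted p = 3.44e-05). Under library totals the log2 fold change was -0.99 and passed (adjusted p = 0.000328), and the alternatives ranged from -1.80 to -0.99. Neutrophil markers moved the same way with a median of -2.16, and their part in the C5ar1 difference was not tested.

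C5ar2, the second C5a receptor (ENSMUSG00000074361, chromosome 7, 16234585 to 16244154, minus strand), lies 2588 bases from C5ar1. Its values were 9.17, 16.3, 15.3 and 21.4 CPM in ICAM1high replicates 1 to 4, and 45.3, 29.0, 24.5 and 12.4 CPM in ICAM1low. The fractions overlapped, since ICAM1low replicate 4 lay below 3 of the ICAM1high libraries. The log2 fold change of -0.84 (SE 0.37) did not pass (edgeR adjusted p = 0.0885), and an interval of 2 SE on either side ran from -1.58 to -0.11. DESeq2 gave -0.90 with an adjusted p of 0.0415. Leaving out ICAM1low replicate 4 gave -1.09 (adjusted p = 0.0123), and leaving out ICAM1high replicate 1 as well gave -0.94 (adjusted p = 0.00823). Without ICAM1high replicate 1 alone it was -0.69 (adjusted p = 0.155), and without ICAM1low replicate 1 -0.50 (adjusted p = 0.261). Under library totals it was -0.18 (adjusted p = 0.726), and with the replicate number as a block -0.76 (adjusted p = 0.272). Of 21 alternative analyses 4 passed and 17 did not. The difference was -1.55 in replicates 1 and 2 (adjusted p = 0.0171) and -0.056 in replicates 3 and 4 (adjusted p = 0.924).

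The Fpr genes lie in a cluster on chromosome 17, and their sequences bear on how reads can be assigned. Fpr1 (ENSMUSG00000045551, 17876471 to 17883940, minus strand) ends 3883 bases before Fpr2 (ENSMUSG00000052270, 17887824 to 17893952, plus strand). The annotated span of Fpr3 (ENSMUSG00000079700, 17887852 to 17971677, plus strand) begins inside the first exon of Fpr2 and shares 48 exonic bases with it, 3.79% of Fpr3. The first 120 coding bases come from the GENCODE M21 transcripts (build mm10) and are printed because they show how close Fpr3 is to Fpr2. Capitals mark bases that differ from Fpr2 or have no counterpart there.
Fpr1: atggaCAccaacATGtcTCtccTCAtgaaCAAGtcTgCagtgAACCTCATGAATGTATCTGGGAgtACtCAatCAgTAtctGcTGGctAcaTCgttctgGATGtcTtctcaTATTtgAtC
Fpr2: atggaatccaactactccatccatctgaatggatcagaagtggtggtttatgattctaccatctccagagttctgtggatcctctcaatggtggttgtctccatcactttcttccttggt
Fpr3: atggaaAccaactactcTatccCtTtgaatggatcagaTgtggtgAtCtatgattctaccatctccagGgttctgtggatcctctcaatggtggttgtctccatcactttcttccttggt

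Fpr3 differs from Fpr2 at 8 of these bases and Fpr1 at 64. Over the aligned coding sequence Fpr2 and Fpr3 are 88.1% identical, with a longest shared run of 94 bases, whereas Fpr1 is 69.1% identical to Fpr2. Of the 31-base words of the Fpr3 transcripts, 14.1% also occur in Fpr2. Reads from such stretches could be counted for either gene, and the counting rules were not given in the sources used here. C5ar1 and C5ar2 are 54.1% identical over their aligned coding bases and share no 31-base word.

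Fpr1, the high-affinity formyl peptide receptor, was lower in ICAM1high. In ICAM1high replicates 1 to 4 it measured 188, 90.1, 106 and 197 CPM, and in ICAM1low 381, 455, 581 and 1092 CPM. The fractions did not overlap, and ICAM1low replicate 4 held the most by far. Means were 145 ± 55.2 against 627 ± 321 CPM (SD, n = 4), and the log2 fold change was -2.11 (SE 0.37, edgeR adjusted p = 0.00141). Without ICAM1low replicate 4 the log2 fold change was -1.70 (adjusted p = 0.00105), without ICAM1high replicate 1 as well -1.89 (adjusted p = 0.000344), and under library totals -1.40 (adjusted p = 0.00349).

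Fpr2, which answers formyl peptides and annexin A1, was the most abundant of the 6 per base in every library. It measured 756, 275, 343 and 473 CPM in ICAM1high replicates 1 to 4, and 853, 989, 1242 and 2196 CPM in ICAM1low. On the TMM scale the fractions did not overlap, though ICAM1high replicate 1 came close to ICAM1low replicate 1. Under library totals they overlapped, with 891 CPM in ICAM1high replicate 1 above the 693 and 854 CPM of ICAM1low replicates 1 and 2. Means were 462 ± 213 against 1319.9 ± 606 CPM (SD, n = 4), and the log2 fold change was -1.51 (SE 0.37, edgeR adjusted p = 0.00775). Under library totals it was -0.82 (adjusted p = 0.0423). Replicates 1 and 2 alone gave -0.84, which did not pass (adjusted p = 0.169), and replicates 3 and 4 alone gave -2.13 (adjusted p = 0.0178). Without ICAM1high replicate 1 and ICAM1low replicate 4, the libraries richest in short-gene counts, the difference was -1.53 (adjusted p = 0.000228).

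Fpr3 was close to the limit of detection. It had 10, 66, 10 and 61 counts in ICAM1high replicates 1 to 4 and 43, 7, 20 and 6 counts in ICAM1low. High and low libraries occurred in both fractions, and the log2 fold change of 0.70 (SE 0.89) did not pass (edgeR adjusted p = 0.557), with 2 SE on either side running from -1.07 to 2.47. Its 223 counts in all equal 0.182% of the 122738 counts of Fpr2. Fpr2 counts were highest in ICAM1low replicate 4, where Fpr3 had its fewest, 6 counts. Whether reads of Fpr2 make up part of the Fpr3 counts was not tested. The related genes Fpr-rs3, Fpr-rs4, Fpr-rs6 and Fpr-rs7 had 0 counts in all 8 libraries.

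Whether a difference between the fractions itself changed with the number series, replicates 1 and 2 against replicates 3 and 4, was tested by an interaction in edgeR. The test called 0 of 14051 genes after adjustment. At an unadjusted p under 0.05 there were 1606 genes, a share above 0.05, with C5ar2 among them (edgeR unadjusted p = 0.0290). Each series held few libraries of each fraction, so a lack of calls does not show that the differences were equal. For C5ar2 the difference was lower by 1.53 (log2 change of -1.53, SE 0.59, adjusted p = 0.417) in replicates 1 and 2, and for Fpr2 it was higher by 1.24 (SE 0.64, adjusted p = 0.428). C3ar1 gave 0.67 (SE 0.32, adjusted p = 0.417), Fpr1 0.88, C5ar1 0.13 and Fpr3 -1.85, all without passing.

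**Figure D2:**
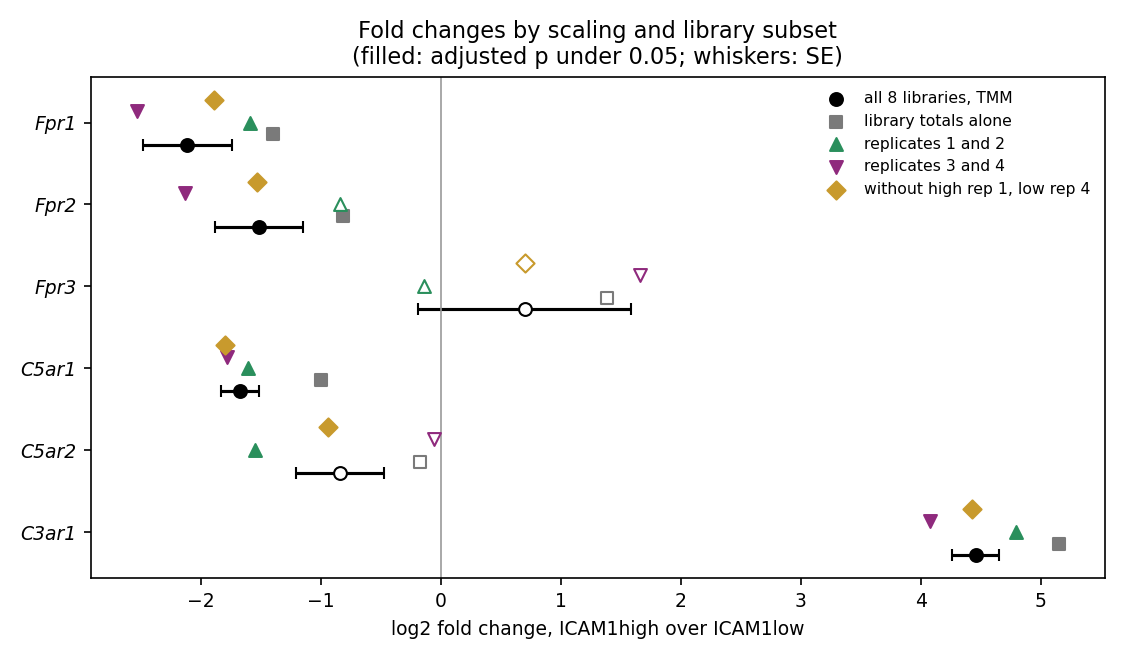
Log2 fold change of each receptor, ICAM1high over ICAM1low, with all 8 libraries (SE as whiskers), under library totals and in either number series alone. The last setting left out ICAM1high replicate 1 and ICAM1low replicate 4 and kept ICAM1low replicate 1. Filled symbols passed at an adjusted p under 0.05; C3ar1, C5ar1 and Fpr1 are filled throughout, Fpr2 is open in replicates 1 and 2, and C5ar2 moves from -1.55 to -0.056 between the series.

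Levels of different genes were compared as CPM per kilobase of the deposited gene length. In ICAM1low the order was Fpr2 at 1018 ± 467, C5ar1 at 563 ± 59.0, Fpr1 at 474 ± 242, C5ar2 at 7.81 ± 3.82, C3ar1 at 1.82 ± 0.261 and Fpr3 at 1.01 ± 1.03 CPM per kilobase (SD, n = 4). In ICAM1high the order was Fpr2 at 356 ± 164, C5ar1 at 177 ± 24.4, Fpr1 at 109.6 ± 41.7, C3ar1 at 39.9 ± 6.71, C5ar2 at 4.36 ± 1.41 and Fpr3 at 1.65 ± 1.61. C3ar1 and C5ar2 thus changed places, C5ar2 lying above C3ar1 in all 4 ICAM1low libraries and below it in all 4 ICAM1high libraries. Fpr2 exceeded C5ar1 within every library. C5ar1 exceeded Fpr1 in every ICAM1high library, but in ICAM1low their log2 ratio ran on both sides of 0, from -0.82 to 0.62 for Fpr1 over C5ar1, as did that of Fpr3 over C3ar1, from -2.73 to 0.63. As a share of the 6 receptors per kilobase, C3ar1 made up 6.24 ± 2.19% in ICAM1high and 0.0920 ± 0.0170% in ICAM1low, while Fpr2 made up 50.2 ± 6.62% and 48.1 ± 4.92% (SD, n = 4).

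**Figure D3:**
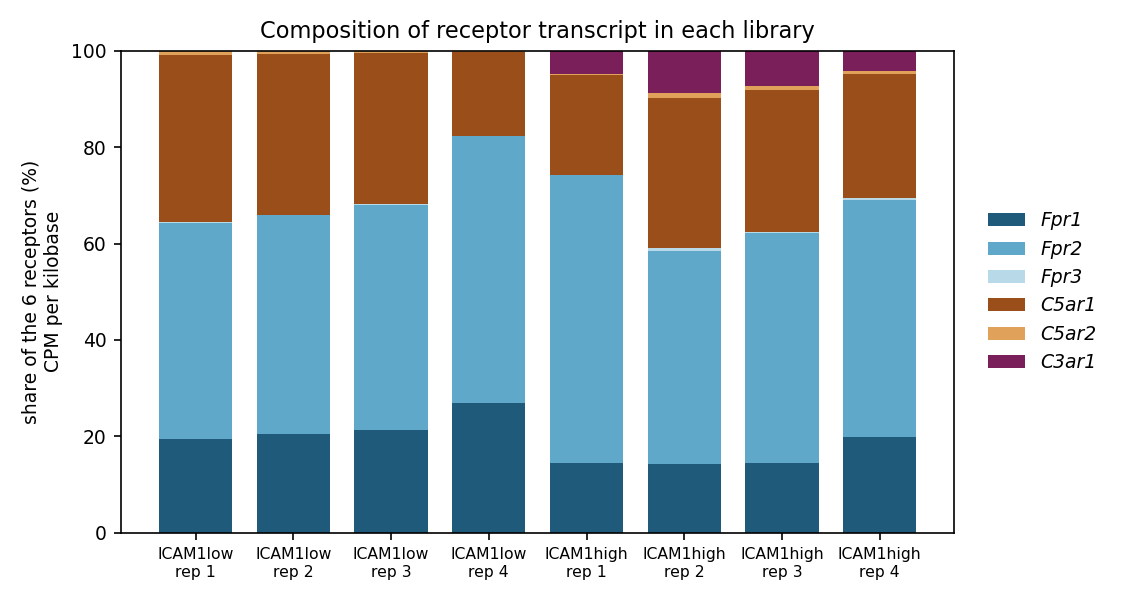
Share of each receptor in the summed CPM per kilobase of the 6 receptors, in percent, one bar per library. C3ar1 takes 4.11 to 8.81% in the ICAM1high libraries and is too thin to see in ICAM1low, where it takes 0.110% or less; Fpr2 is the tallest segment in every bar.

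A ratio of 2 genes within a library does not depend on how libraries are scaled, so all 15 pairs of receptors were compared in that form. C5ar1 exceeded C3ar1 per kilobase 4.45-fold in ICAM1high and 310.2-fold in ICAM1low, a log2 difference of -6.12 between fractions. Fpr2 over C3ar1 and Fpr1 over C3ar1 differed by -5.97 and -6.52, and C5ar2 and Fpr3 over C3ar1 by -5.20 and -3.93. Fpr1 over Fpr2 also differed, at -1.68 ± 0.31 in ICAM1high and -1.13 ± 0.07 in ICAM1low on the log2 scale (SD, n = 4), so that Fpr1 held less relative to Fpr2 in every ICAM1high library than in any ICAM1low library. For these 6 pairs the fractions did not overlap and the exact two-sided permutation p was 0.0286, the smallest that 4 against 4 libraries allow. The adjusted p over the 15 pairs was 0.0714 and passed for none. All of the 6 but Fpr1 over Fpr2 share the C3ar1 counts, so they are not separate results. How often ratios of other genes do not overlap was not computed. The other 9 pairs overlapped; Fpr2 over C5ar1 was 0.91 ± 0.44 against 0.76 ± 0.60 (exact permutation p = 0.6).

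The stretches of 250 bases upstream of the annotated starts of the receptors that passed the test are shown so that the gene that rose can be set beside the 3 that fell. They come from the RefSeq promoter table (build GRCm38.p6), which matched all 6 receptors. Capitals mark matches, on either strand, to GAGGAAG (core of the PU.1 site), TTGCNNAA (C/EBP), TGANTCA (AP-1) or GGG, any 2 bases and TTTCC (NF-kB). The windows are chr6:122856158-122856407 (minus strand) for C3ar1, chr7:16259339-16259588 (minus) for C5ar1, chr17:17883940-17884189 (minus) for Fpr1 and chr17:17887574-17887823 (plus) for Fpr2. In annotated exons lie 28 bases of the C5ar1 window, 4 of the C3ar1 window, 1 of the Fpr1 window and 0 of the Fpr2 window. The start used for C5ar1 is not the outermost GENCODE one. Most of the C5ar1 window lies inside the annotated span of the gene, which ends at 16259540, and so is not upstream of the whole gene.
C3ar1: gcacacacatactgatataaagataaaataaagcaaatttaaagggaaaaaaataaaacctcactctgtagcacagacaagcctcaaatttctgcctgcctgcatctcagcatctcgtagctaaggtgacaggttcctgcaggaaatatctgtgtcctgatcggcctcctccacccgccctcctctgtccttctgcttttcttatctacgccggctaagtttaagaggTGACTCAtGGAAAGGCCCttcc
C5ar1: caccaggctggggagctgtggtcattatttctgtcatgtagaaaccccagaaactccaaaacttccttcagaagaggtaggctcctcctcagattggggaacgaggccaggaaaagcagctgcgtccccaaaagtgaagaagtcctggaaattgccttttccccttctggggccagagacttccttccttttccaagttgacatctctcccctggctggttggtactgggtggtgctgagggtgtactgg
Fpr1: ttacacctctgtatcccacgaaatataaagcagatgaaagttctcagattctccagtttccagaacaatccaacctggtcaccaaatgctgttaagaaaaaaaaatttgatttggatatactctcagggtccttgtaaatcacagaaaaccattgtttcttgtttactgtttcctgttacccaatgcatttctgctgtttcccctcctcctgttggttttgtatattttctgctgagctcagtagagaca
Fpr2: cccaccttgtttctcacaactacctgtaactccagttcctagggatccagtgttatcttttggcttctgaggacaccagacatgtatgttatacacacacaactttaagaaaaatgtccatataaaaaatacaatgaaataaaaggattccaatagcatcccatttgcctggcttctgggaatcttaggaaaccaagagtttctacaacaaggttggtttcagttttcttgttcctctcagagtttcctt

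The C3ar1 window holds 1 AP-1 match at -22 to -16 from the start and 1 NF-kB match at -14 to -5, which do not overlap. Of all 32851 promoter windows of this length, 6.75% hold the AP-1 letters, 1.41% the NF-kB letters, 10.6% the PU.1 letters and 9.56% the C/EBP letters. The other 3 windows hold 0 matches to these letters. A match is a description of letters only.

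By root-mean-square distance between mean-centred log2 CPM profiles over the 8 libraries, the genes nearest to C3ar1 were Apoe, a lipid carrier of macrophages, at 0.21, Cd83, found on mature dendritic cells, at 0.24 and Lpl, lipoprotein lipase, at 0.24. The median distance of C3ar1 over 10550 protein-coding genes was 2.19. The distance includes the difference between the fractions. Apoe, Cd83 and Lpl had log2 fold changes of 4.21, 4.34 and 4.28, beside 4.46 for C3ar1. Whether near genes share a cell type was not tested. Nearest to C5ar1 were Samsn1 at 0.071, the retinoic acid receptor gene Rara at 0.10 and Xbp1, a factor of the unfolded protein response, at 0.10. Fpr1 lay nearest to Upp1, uridine phosphorylase, at 0.15, Slpi, a protease inhibitor, at 0.20 and Gm5416 at 0.20, and Fpr2 to Evi2 at 0.13, Txn1, thioredoxin, at 0.16 and Trem3 at 0.16. Those nearest to C5ar2 were Slc10a1, Hbp1 and L1cam, at 0.17 to 0.19, and those nearest to Fpr3 were Eid3, Gm17334 and Syne2, at 0.66 to 0.85. Among the receptors themselves Fpr1 and Fpr2 were closest, at 0.33, followed by Fpr2 and C5ar1 at 0.47 and Fpr1 and C5ar1 at 0.51.

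Of 15 ligands and ligand precursors 12 were tested, of which 0 were called higher and 5 lower, with a median of -0.62, beside 22.6% higher and 19.6% lower over all genes. Anxa1, which encodes the Fpr2 ligand annexin A1, had means of 183 and 558 CPM and fell by 1.61 on the log2 scale (SE 0.20, edgeR adjusted p = 0.000214). Camp, the cathelicidin precursor, fell by 3.48 on the log2 scale and Hc, which encodes complement C5, fell by 1.18. The other members called lower, picked after their values were seen, were Saa2, an acute-phase serum amyloid, at -2.49 and App at -0.58. C3, the precursor of C3a, also picked after its values were seen, had means of 1094 and 1156 CPM and a difference of -0.079 on the log2 scale (SE 0.29, adjusted p = 0.847). Saa3 was at 0.095 (SE 0.81, adjusted p = 0.935). Under library totals 2 ligand genes were called higher and 3 lower.

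Of 17 genes that generate or break down anaphylatoxins 12 were tested, 3 were called higher and 1 lower, with a median of 0.26, beside 22.6% higher and 19.6% lower over all genes. C4b, complement C4, rose by 3.44 on the log2 scale (SE 0.23, edgeR adjusted p = 5.02e-06). Cfb, factor B, picked after its values were seen, had 129 counts over the ICAM1high libraries and 1 over the ICAM1low libraries. Cpm, a carboxypeptidase that trims the C-terminal arginine of anaphylatoxins, also picked after its values were seen, was at -1.46 (adjusted p = 0.0311), but no gene of the list was called lower under library totals, with limma-voom, with the replicate number as a block, with no filter, under the minimum of 50 counts or in either number series alone, nor without ICAM1high replicate 2, 3 or 4 or ICAM1low replicate 1 or 3. Under library totals 6 genes of the list were called higher and 0 lower.

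Of 33 signalling and shut-off genes, all tested, 3 were called higher and 12 lower on the TMM scale, with a median of -0.32, beside 22.6% higher and 19.6% lower over all genes; whether the list differs from other genes was not tested. Those higher were Grk3, a receptor kinase that starts desensitisation, at 4.26 (SE 0.29, edgeR adjusted p = 5.02e-06), Rgs1, which speeds the shut-off of G alpha subunits, at 3.24 (SE 0.23, adjusted p = 6.34e-06), and Gna15, a G alpha subunit of the Gq class, at 2.46 (SE 0.27, adjusted p = 9.41e-05). Among those lower, picked after their values were seen, the inhibitory G alpha genes Gnai3 and Gnai2 were at -0.98 and -0.74, the kinases Grk5 and Grk2 at -1.45 and -0.65, and the GTPase Rac2 at -1.0. PI3 kinase gamma, Pik3cg, was at -0.094 (SE 0.22, adjusted p = 0.755). The balance depended on scaling, since 11 were called higher and 1 lower under library totals. In replicates 1 and 2 alone 3 were called higher and 2 lower.

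Other chemoattractant receptors moved both ways, as the 6 did. Of 21 listed, 18 were tested, with a median of -0.76. Of these 5 were called higher and 8 lower, beside 22.6% higher and 19.6% lower over all genes. Under library totals 8 were called higher and 6 lower. Cmklr1, the chemerin receptor, rose by 3.99 on the log2 scale (SE 0.29, edgeR adjusted p = 6.56e-06). The leukotriene receptor Cysltr1 rose by 2.79, and Cx3cr1 and Ccr2, chemokine receptors of monocytes picked after their values were seen, by 4.70 and 3.41. Among those lower and also picked after their values were seen, Cxcr2, Ccr1 and the leukotriene B4 receptor Ltb4r1 were at -1.71, -1.73 and -2.04, beside -1.67 for C5ar1.

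**Figure D4:**
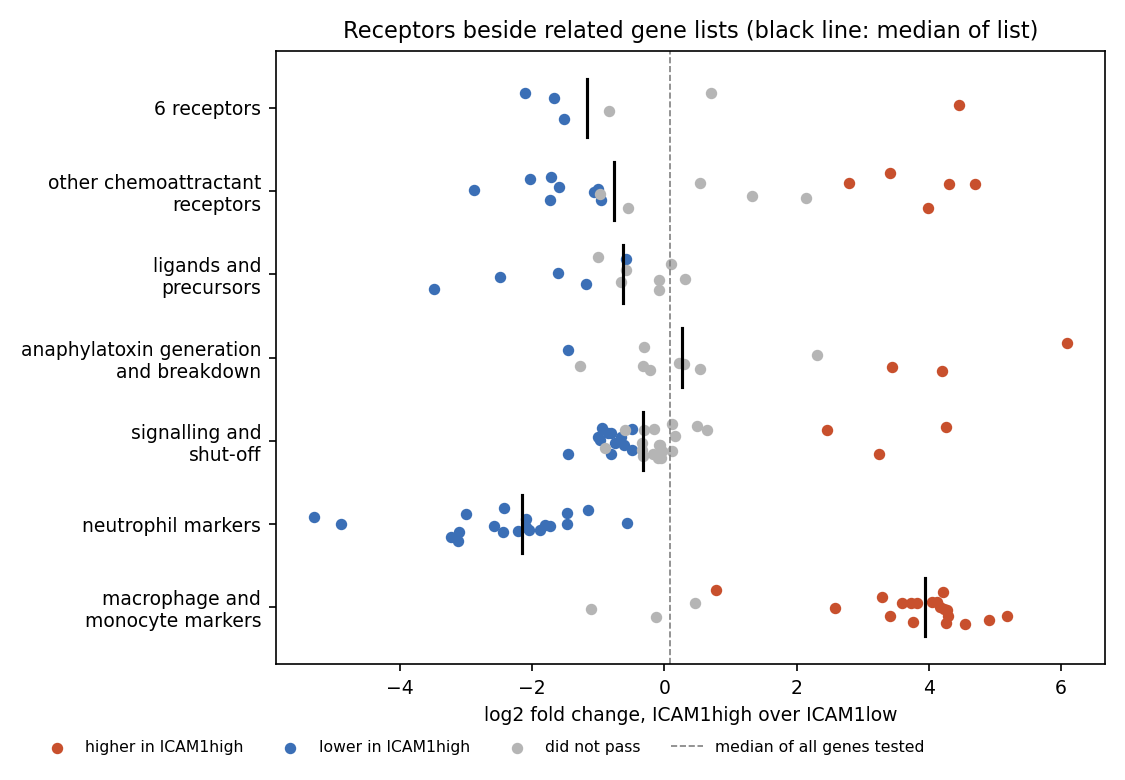
Log2 fold changes, ICAM1high over ICAM1low, of the tested genes of each list (points, coloured by call at an adjusted p under 0.05), with list medians as black lines and the median of all genes tested, 0.080, dashed. Neutrophil markers lie below 0 with a median of -2.16, most macrophage markers lie near their median of 3.94, and the receptors hold points on both sides. Vertical scatter within a list is random.

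Markers of other cell types were called in both directions, beside 22.6% higher and 19.6% lower over all genes tested. Whether these lists differ from other genes was not tested. Of 8 eosinophil markers 3 were tested: Siglecf, a lectin also found on tumour neutrophils, was called higher at 0.96, Ear2 higher at 2.33 and Ccr3 lower at -1.60, while Epx and Prg2, which encode eosinophil granule proteins, had 1 and 7 counts in all. Under 16 of 21 alternatives 1 eosinophil marker, not 2, was called higher. Of 8 dendritic cell markers 5 were tested and Batf3, picked after its values were seen, was called higher; the number called ran from 0 to 4 over the alternatives and from 1 to 3 with 1 library left out, where 3 were called without ICAM1low replicate 1 or 4. Of 9 lymphocyte markers 3 were tested, with Cd4 called higher and Cd3d lower. Of 7 epithelial and tumour markers 5 were tested, and Krt8, Krt18 and Epcam were called lower, with summed levels of the list of 111 to 163 CPM in ICAM1high and 258 to 459 CPM in ICAM1low. Of 8 stromal and endothelial markers, all tested, Kdr, Col1a2 and Col3a1 were called higher. The part of these cells in the receptor differences was not tested.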

How the data were processed

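For 8 libraries the authors deposited read counts of each gene in 1 table, with gene names, positions and gene length in bases, which was used for levels per kilobase. Counts were whole numbers with no normalization. HISAT2, a spliced aligner, and mm10 are named per the submitters' processing notes; their versions, the counting tool, annotation, strand setting and any filter were not given in the sources used here. Positions of the 6 receptors matched GENCODE M21. Libraries were grouped by their titles, and held 10328575 to 22751975 counts.

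Genes were filtered by filterByExpr (14051 of 54532 kept), TMM-scaled and compared by the quasi-likelihood test in edgeR 4.0.16 in R 4.3.3, unpaired, with Benjamini-Hochberg adjustment over all genes tested and a threshold of 0.05. Standard errors are the size of the log2 fold change over the square root of F. Log2 CPM profiles used a prior count of 2. Ratios within libraries added 0.5 to each count and used exact permutation tests over 15 pairs. The script was tested on simulated data. Coding sequences were aligned globally with Biopython 1.88.

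Named genes were the 6 receptors, in each of 13 further lists up to 3 members with the smallest p whose average log2 CPM reached 1 or more, and the 3 nearest profiles of each receptor; all other named genes were picked after their values were seen, and some genes the rule names are not reported here. The receptors and lists were chosen with earlier results of these data known. Alternatives were DESeq2 1.42.0, limma-voom (limma 3.58.1), RLE, upper-quartile and library-total scaling, no filter, at least 50 counts in 4 libraries, a replicate block, robust dispersion, the number series as a covariate or alone, and libraries left out. Replicates of a fraction differed by far more than counting error (chi-square per degree of freedom 14.3 to 262). Library numbers are shared between fractions, but the labels state no pairing.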

Additional observations from a re-analysis of the deposited data

How the results depend on the processing

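Of the receptors, C3ar1, C5ar1 and Fpr1 kept their direction and their call under all 21 alternatives run, over 4.07 to 5.15, -1.80 to -0.99 and -2.53 to -1.40 on the log2 scale. Fpr2 (-2.13 to -0.82) lost its call in replicates 1 and 2 alone (-0.84). C5ar2 passed with DESeq2 (-0.90), in replicates 1 and 2 alone (-1.55), without ICAM1low replicate 4 (-1.09), and with ICAM1high replicate 1 and ICAM1low replicate 4 both left out (-0.94); leaving out 1 library at a time it ranged from -1.09 to -0.50. Fpr3 turned to -0.14 in replicates 1 and 2 alone and ranged from -0.051 to 1.64 with 1 library left out; no value was obtained for it under the minimum of 50 counts. The cause was not tested. Genes called higher and lower numbered 3172 and 2748, and 6818 and 839 under library totals alone, 1708 and 1416 in replicates 1 and 2, and 1658 and 1604 in replicates 3 and 4, where fewer samples were tested.

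Several ratio differences between fractions moved with the number series. In replicates 1 and 2, Fpr1 over C5ar2 was at -0.11, Fpr2 over C5ar2 at 0.56, C5ar1 over C5ar2 at -0.051 and C5ar2 over C3ar1 at -6.35; in replicates 3 and 4 these were -2.52, -2.09, -1.79 and -4.06. Fpr1 over Fpr3 went from -1.55 to -3.62 and Fpr2 over Fpr3 from -0.88 to -3.19, within the wide spread of Fpr3. Fpr2 over C5ar1, at 0.15, turned to -0.30 in replicates 3 and 4 and to -0.049 without ICAM1high replicate 1 (range to 0.45 with 1 library left out). The interaction of C5ar1 with the series turned from 0.13 to -0.076 under library totals.

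With the replicate number as a block, 2263 genes were called higher and 1975 lower, and no receptor changed its call: C3ar1 was at 4.45, C5ar1 at -1.68, Fpr1 at -2.08 and Fpr2 at -1.54 (adjusted p = 0.0216). Deviations of same-numbered libraries from their group means correlated at -0.57, 0.21, 0.18 and -0.30. Of 8 libraries, 3 correlated best with their own number. With 4 libraries per fraction, some of which stood apart, these values cannot decide whether the numbers mark pairs. The numbers were not taken as pairs because the labels state no pairing.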

Other observations

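Within ICAM1low, C5ar2 ran in the opposite order to Fpr1 and Fpr2 over the same 4 libraries. C5ar2 measured 45.3, 29.0, 24.5 and 12.4 CPM in replicates 1 to 4, where Fpr1 measured 381, 455, 581 and 1092 CPM and Fpr2 853, 989, 1242 and 2196 CPM. Fpr3, with 43, 7, 20 and 6 counts, was highest in replicate 1 and lowest in replicate 4, as C5ar2 was. C5ar1, the neighbour of C5ar2, stayed between 1307 and 1659 CPM. C3ar1 measured 6.97, 6.79, 8.40 and 9.11 CPM and was highest in replicate 4, as Fpr1 and Fpr2 were. Genes shorter than 1500 bases took 7.29, 9.91, 9.77 and 16.7% of counts in these libraries. The deposited lengths are 1324 bases for Fpr1, 1296 for Fpr2, 1268 for Fpr3, 2570 for C5ar1, 3561 for C5ar2 and 4305 for C3ar1. C3ar1, the longest, thus did not follow C5ar2. In ICAM1high, replicate 1 held the lowest C5ar2 (9.17 CPM), the highest Fpr2 (756 CPM) and the largest share of short-gene counts (12.4%). That library also held the highest C3ar1 (200.3 CPM), but only 10 counts of Fpr3. Over ICAM1high replicates 1 to 3 the order was also opposite. C5ar2 measured 9.17, 16.3 and 15.3 CPM there, Fpr1 188, 90.1 and 106 CPM and Fpr2 756, 275 and 343 CPM. Replicate 4 departed from that order. It held the highest C5ar2 of ICAM1high (21.4 CPM) together with the highest Fpr1 (197 CPM), at the lowest share of short-gene counts (7.32%). The part of gene length in these values was not tested.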
